A study of Mus musculus with 9 samples.

Results

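The genes S100a8, S100a9 and Lcn2 were described in mouse hearts as 3 of the 29237 genes of a deposited expression table, found there by their symbols, each in 1 row. They were selected on their measured FPKM in these same libraries, whose differences between the groups were known, so their values below are a description and carry no test. The hearts came from wild-type C57BL/6 mice of 8 to 12 weeks in 3 groups of 3 libraries each, labelled Control, DOX and TPTN. The design text calls these a normal, a model and a treated group, and the series title names dilated cardiomyopathy caused by doxorubicin, a cancer drug of the anthracycline class whose use is limited by harm to the heart. No label says what TPTN stands for, whether TPTN mice also received doxorubicin, or at what dose and on what day hearts were taken. Nothing beyond the replicate numbers states that the libraries of a group came from separate animals. The spread that p-values rest on here may therefore be technical.

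S100a8 and S100a9 encode the calcium-binding proteins that pair into calprotectin, which fills the cytosol of neutrophils, is released when these cells are activated or die, binds zinc and manganese, and signals through receptors such as Tlr4. Lcn2 encodes lipocalin 2, a secreted protein of neutrophil granules that binds bacterial siderophores and so withholds iron, and which heart muscle, epithelium and other cells can also make under inflammation. In a whole heart, transcripts of the first pair are usually read as neutrophils or monocytes in the tissue or its blood, whereas those of Lcn2 can come from several cell types. In bulk tissue, fewer cells of a type and less RNA per cell cannot be told apart.

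S100a8 (ENSMUSG00000056054) lies on the plus strand of chromosome 3 at 90668978 to 90670035 of GRCm38, and S100a9 (ENSMUSG00000056071) on the minus strand at 90692632 to 90695721, with 22596 bases and 0 annotated genes between them in GENCODE M21. Lcn2 (ENSMUSG00000026822) lies on the minus strand of chromosome 2 at 32384633 to 32388252. All 3 are protein coding, and none shared a 31-base word of its transcripts with another gene, so no near-identical copy was found that could share their reads. The stretches upstream of the first pair are shown because both are genes of myeloid cells whose levels were ordered alike here, and because genes for C/EBP factors, which act in such cells, are among the genes tested below. They are RefSeq upstream windows on GRCm38.p6, read 5′ to 3′ on each gene's strand and limited to bases before every annotated exon: for S100a8 chr3:90668821-90668977 on the plus strand, and for S100a9 chr3:90695722-90695971 on the minus strand. Capitals mark matches to the C/EBP motif TTNNGNAA on either strand.
S100a8: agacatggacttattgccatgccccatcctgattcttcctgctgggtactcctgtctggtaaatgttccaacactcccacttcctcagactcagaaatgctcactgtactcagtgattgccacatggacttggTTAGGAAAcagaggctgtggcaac
S100a9: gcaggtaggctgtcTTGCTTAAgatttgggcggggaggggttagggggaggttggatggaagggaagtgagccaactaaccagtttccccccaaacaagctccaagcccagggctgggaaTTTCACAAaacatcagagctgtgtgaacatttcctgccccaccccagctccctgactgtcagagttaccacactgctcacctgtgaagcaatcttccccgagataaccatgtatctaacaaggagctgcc
The motif occurred 1 time in the S100a8 window, 2 times in the S100a9 window and 1 time in the Lcn2 window of 250 bases, whose letters are not shown as 197 of them lie in an annotated exon. At least 1 match was present in 36.9% of the 32851 RefSeq windows of that length, so its presence does not set these genes apart. The STAT motif TTCNNNGAA, present in 7.02% of windows, was in none of the 3. Further motifs were also searched in the windows of 250 bases. GAGGAA, the motif of the factor PU.1 (23.25% of windows), occurred 2 times for S100a8 and 1 time for Lcn2. TATAAA (12.37%) occurred 1 time for S100a8, and the kappaB and glucocorticoid receptor motifs were in none. A match is only a run of letters, and no binding was measured here.

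Levels are FPKM, the fragments per kilobase of transcript and scaled to the mapped fragments of the library, and all libraries were rich in heart muscle transcripts (Myh6, Actc1, Tnnt2 and 4 others summed to 10599 to 13815 FPKM). Depth, for which the estimate is rough and weakly supported, came to 23.7 to 24.8 M read pairs in control, 18.8 to 19.7 in DOX and 19.7 to 21.6 in TPTN. On these estimates the lowest levels below rest on a few read pairs. One library stood apart: the 6 markers of atrial muscle summed to 2544 FPKM in DOX replicate 1, to 203 and 296 in the other DOX libraries and to 56.3 to 153 in control. The DOX levels of the 3 genes, the neutrophil marker counts, the list medians and the TPTN against DOX calls are therefore also given without it.

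All 3 genes were low in these hearts, highest in control, lower in DOX and lowest in TPTN. S100a8 stood at 1.61, 3.83 and 1.33 FPKM in control replicates 1, 2 and 3, at 0.178, 1.36 and 0.325 in DOX and at 0.146 in TPTN replicate 1, and it was listed at 0 in TPTN replicates 2 and 3. Control replicate 2 was the highest library, and DOX replicate 2 lay above control replicate 3, so control and DOX overlapped, whereas every TPTN library lay below every other library. The DOX mean was 27.5% of the control mean (0.621 ± 0.644 against 2.25 ± 1.37 FPKM, SD, n = 3 each). DOX replicate 2 carried much of it: without that library the DOX mean was 0.251 FPKM, 11.2% of the control mean. On the scale of log2(FPKM + 1), the difference of group means was -0.998 for DOX against control, -0.56 for TPTN against DOX and -1.56 for TPTN against control. That scale understates the change of genes at such levels.

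S100a9, the partner of S100a8 in calprotectin, was the more abundant of the pair per length in 8 of the 9 libraries. It stood at 3.54, 5.59 and 2.29 FPKM in control hearts, at 0.830, 2.30 and 1.51 in DOX and at 0.0779, 0.267 and 0.112 in TPTN. The order of the groups was that of S100a8, again with DOX replicate 2 just above control replicate 3 and with all TPTN libraries below all others. The group means were 3.81 ± 1.66 FPKM in control hearts, 1.55 ± 0.734 in DOX (40.6% of control) and 0.152 ± 0.101 in TPTN (4.0% of control; SD, n = 3 each). As log2(FPKM + 1) the differences were -0.90 for DOX against control, -1.11 for TPTN against DOX and -2.01 for TPTN against control.

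Lcn2 differed less between control and the other groups, and within control and DOX it varied least of the 3. Its levels were 1.51, 2.14 and 1.44 FPKM in control hearts, 1.01, 1.26 and 0.911 in DOX and 0.302, 0.583 and 0.317 in TPTN. Here the 3 groups did not overlap at all. Over all genes of the table, 3.85% had every DOX library below every control library. For TPTN the shares were 7.89% against DOX and 4.32% against control, which also stand beside the separations of S100a8 and S100a9 above. Nothing is read from the separations, since the 3 genes were selected on these same libraries. The means were 1.70 ± 0.387 FPKM in control hearts, 1.06 ± 0.179 in DOX (62.6% of control) and 0.400 ± 0.158 in TPTN (23.6% of control; SD, n = 3 each). The differences of log2(FPKM + 1) were -0.38, -0.56 and -0.94 for DOX against control, TPTN against DOX and TPTN against control. The level is per 2623 bases of exon, a length that includes transcripts with kept introns, whereas the lengths of S100a8 and S100a9 are 694 and 522 bases.

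**Figure D1:**
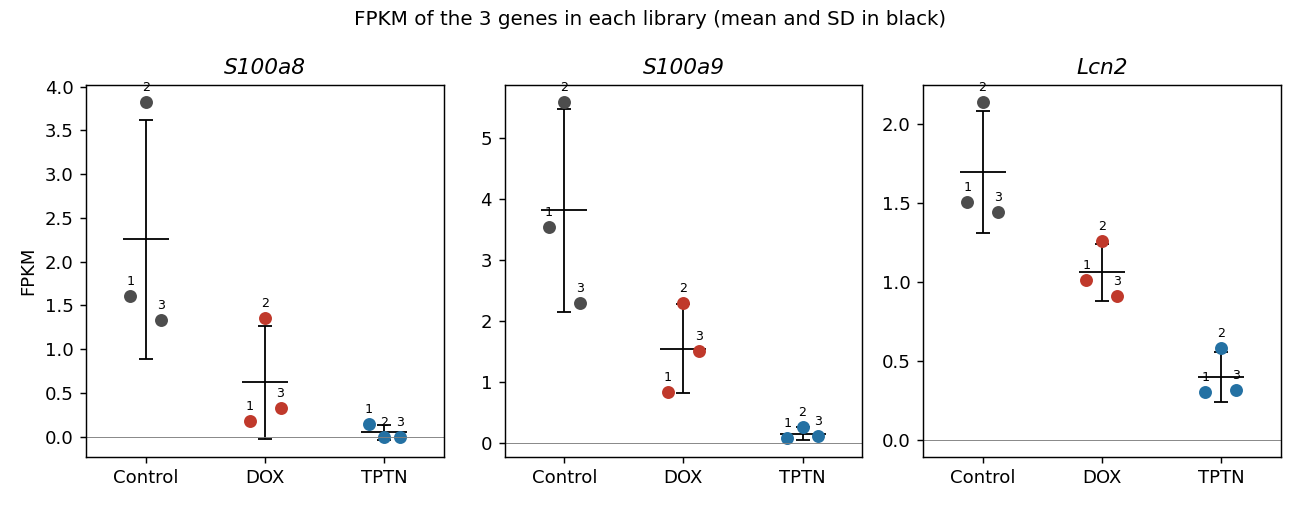
FPKM (y axis) of S100a8, S100a9 and Lcn2 in each library of the 3 groups (x axis); points are libraries with their replicate numbers, and black bars give the mean and SD of 3 libraries. All TPTN points lie below all DOX and control points, while DOX replicate 2 reaches the lowest control library for S100a8 and S100a9 (1.36 against 1.33 and 2.30 against 2.29 FPKM) but not for Lcn2. Over all genes, TPTN lies so below DOX for 7.89% and below control for 4.32%.

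Expressed as estimated read pairs, the 9 values of S100a8 ran from 0 to 65.8, and TPTN held 2.09 in all against 115 in control and 25.3 in DOX. For S100a9 the sums were 145 in control, 47.0 in DOX and 5.00 in TPTN. For Lcn2 they were 325, 162 and 65.7, so its TPTN level rests on more reads than those of the S100 pair. These numbers are rough, since the deposited values are estimates of transcript abundance, and an exact 0 says only that no fragment was assigned.

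Without DOX replicate 1, the DOX means were 0.842 FPKM for S100a8, 1.9 for S100a9 and 1.09 for Lcn2. The DOX against control differences were then -0.80, -0.68 and -0.37, and the TPTN against DOX differences -0.76, -1.32 and -0.58, in the order S100a8, S100a9, Lcn2. Control replicate 2 and DOX replicate 2 were the highest of their groups for all 3 genes. Leaving out control replicate 2 lowered the control means to 1.47, 2.92 and 1.47 FPKM and brought the DOX against control differences to -0.67, -0.64 and -0.27. Leaving out DOX replicate 2 brought the TPTN against DOX difference of S100a8 to -0.26, with those of S100a9 and Lcn2 at -0.90 and -0.49. No difference changed sign when any 1 library was left out, which could not happen where the groups did not overlap.

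The 3 genes did not keep a fixed ratio. S100a9 over S100a8 was 2.21, 1.46 and 1.72 in control hearts, 4.67, 1.69 and 4.64 in DOX and 0.532 in TPTN replicate 1, the TPTN library with S100a8 above 0. DOX replicate 2 thus lay within the range of control, apart from the other DOX libraries, though those rest on few S100a8 read pairs (2.43 and 4.24). Lcn2 over S100a9 was 0.425, 0.384 and 0.630 in control hearts, 1.22, 0.549 and 0.604 in DOX and 3.87, 2.18 and 2.83 in TPTN, so that Lcn2 was the most abundant of the 3 per length in every TPTN library and the least abundant of them in control replicates 1 and 2. This order depends on the exon lengths used. In estimated read pairs Lcn2 was also the highest of the 3 in control replicates 1 and 2 (93.6 and 139, against 43.8 and 72.3 for S100a9).

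In the authors' deposited table all 3 genes are marked as significant, as are 9.89% of its genes; nothing is read from this count, since the genes were selected on the same libraries. It gives S100a9 a p-value of 8.88e-13 (q-value 6.19e-10, rank 20 by p), Lcn2 a p-value of 5.99e-11 (q-value 2.72e-08, rank 30) and S100a8 a p-value of 1.43e-07 (q-value 2.17e-05, rank 91). No header or label names the groups behind these values.

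Markers more restricted to neutrophils were low. Of a list of 15 neutrophil markers, 13 were in the table, and 0 reached a mean of 0.5 FPKM over the 9 libraries, the minimum for testing. The 13 summed to 1.77, 3.74 and 1.58 FPKM in control hearts, to 0.585, 2.02 and 1.18 in DOX and to 0.557, 0.468 and 0.704 in TPTN. Control and DOX overlapped in this sum, and DOX and TPTN overlapped only through DOX replicate 1, while every TPTN library lay below every control library.

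The most abundant of them in control was Retnlg, a secreted resistin-like protein gene of blood neutrophils, at 0.802, 1.96 and 0.637 FPKM in control. It was listed at 0, 0.139 and 0.122 in DOX and at 0, 0 and 0.0756 in TPTN. Control replicate 2 was again the highest library, and all control libraries lay above all others. Fitted with no minimum level, Retnlg did not pass in limma (adjusted p = 0.174 for DOX against control and 0.254 for TPTN against control).

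Csf3r, the receptor for granulocyte colony-stimulating factor, was at 0.436, 0.653 and 0.442 FPKM in control hearts, at 0.303, 0.212 and 0.514 in DOX and at 0.228, 0.271 and 0.339 in TPTN. Only TPTN was apart from control for this receptor. Cxcr2, the receptor for neutrophil-attracting chemokines, was at 0.166, 0.109 and 0.0764 in control hearts, at 0, 0.0358 and 0.0628 in DOX and at 0.0412, 0 and 0.0146 in TPTN, with all control libraries highest. Ly6g, the surface marker that defines mouse neutrophils, was listed at 0.0392 in control replicate 2 and at 0 in every other library.

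Libraries of TPTN lay below all control libraries for 4 of the 13 markers (Csf3r, Cxcr2, Fpr1 and Retnlg), against 4.32% of all genes in the table. For DOX against control it was 2 of 13 (Cxcr2 and Retnlg), against 3.85% of genes. For TPTN against DOX it was 0 of 13, against 7.89%. Without DOX replicate 1, a setting chosen after seeing the data, it was 2 of 13 for DOX against control (9.69% of genes) and 3 of 13 for TPTN against DOX (12.0%), namely Mmp8, Mmp9 and Retnlg. Camp and Ltf, of secondary granules, were listed at 0 in all control libraries, and Camp, Cd177, Fpr1, Ly6g, Mmp8, Stfa2l1 and Trem1 in all TPTN libraries. Several of the 13 markers were thus at or near 0 in every group, and all 13 lay under the minimum level for testing. Their sum had means of 2.36 FPKM in control, 1.26 in DOX and 0.576 in TPTN. That is the order of the 3 genes, with the overlaps of libraries given above. The part of neutrophils in the levels of the 3 genes was not tested.

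Markers of macrophages, monocytes and platelets overlapped between the groups. Macrophage markers such as C1qa and Csf1r, with Lyz2 among them, summed to 141 to 181 FPKM in control hearts, 133 to 169 in DOX and 134 to 155 in TPTN. Lyz2, which is also on the neutrophil granule list below, made up much of this. Its means were 81.1, 76.5 and 67.6 FPKM, beside mean sums of 159, 151 and 143. The sum therefore does not speak for the other macrophage markers alone. Monocyte markers summed to 9.29 to 10.1, 7.06 to 10.2 and 8.41 to 10.1, and platelet markers to 7.13 to 11.8, 9.61 to 10.8 and 8.80 to 11.7 in the same order. Erythroid markers such as the globin genes, which report red cells, summed to 945, 449 and 396 in control hearts, 331, 927 and 971 in DOX and 603, 542 and 447 in TPTN. Control replicate 2 was highest for the 3 genes, and DOX replicate 3 was highest for this red cell sum. Lymphocyte markers summed to 0.454 to 0.524 FPKM in control, 0.545 to 1.42 in DOX and 0.611 to 1.4 in TPTN, lowest in control. Endothelial markers summed to 99.1 to 107, 105 to 109 and 101 to 123 in the same order, with overlap, and of the 6 Kdr, a receptor for vascular endothelial growth factor, named after its values were seen, was called higher in TPTN against both other groups in limma (means of 14.4, 16.4 and 23.4 FPKM). Fibroblast markers, which also overlapped, summed to 76.5 to 79.6, 75.8 to 109 and 76.7 to 84.7 FPKM. The part of blood or of any cell type in the levels of the 3 genes was not tested.

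**Figure D2:**
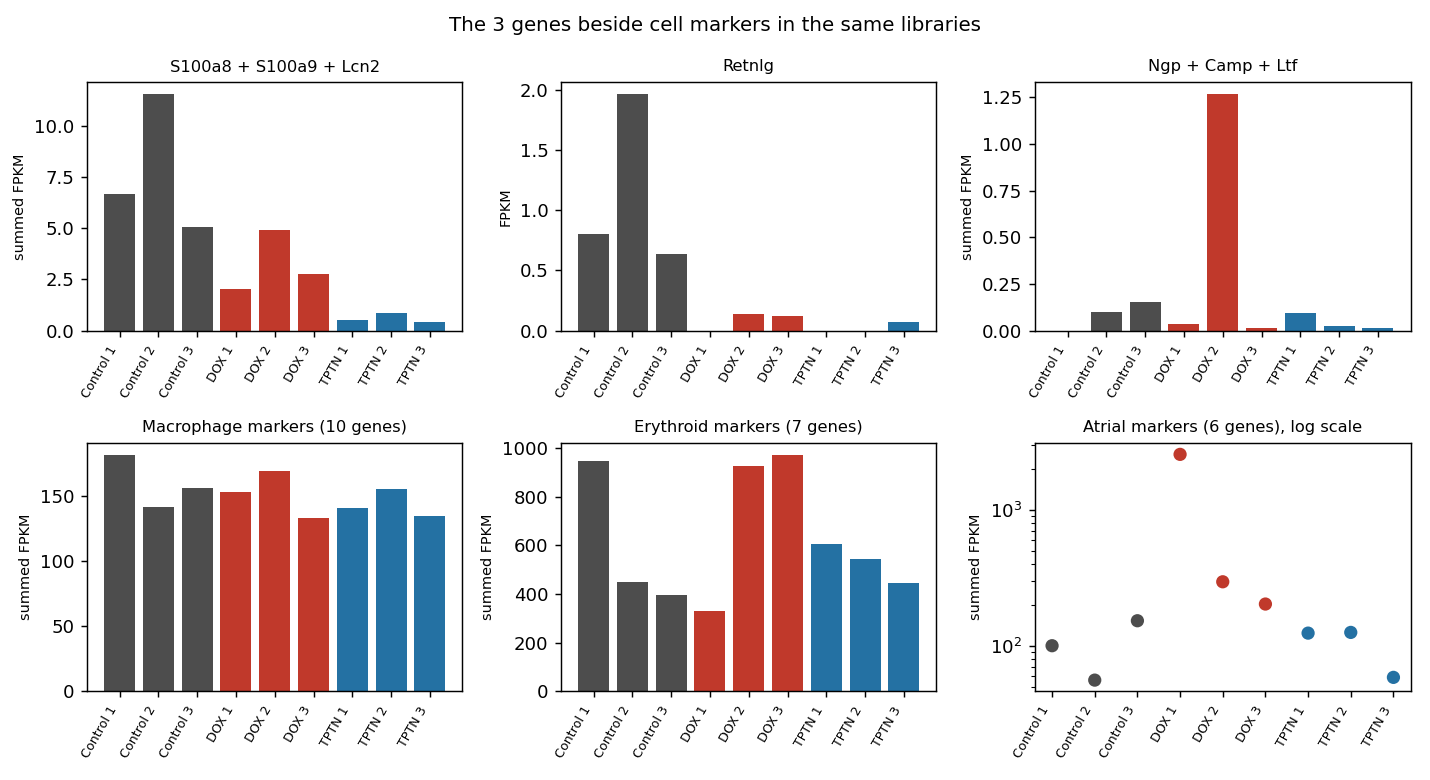
Summed FPKM (y axis) in each of the 9 libraries (x axis) of S100a8, S100a9 and Lcn2, of Retnlg, of the secondary granule genes Ngp, Camp and Ltf, and of macrophage, erythroid and atrial markers, the last on a log axis; bars and points are single libraries. Retnlg is highest in control like the 3 genes, and the macrophage sum, much of it Lyz2, overlaps between the groups (133 to 181 FPKM). Ngp, Camp and Ltf stand out in DOX replicate 2 (1.27 FPKM) and the atrial markers in DOX replicate 1 (2544 FPKM).

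The pathway around the 3 genes was followed in 10 lists by role, 154 genes in all, of which 126 were in the table and 56 were abundant enough to test. In DOX against control, 0 of the 56 passed in limma (Benjamini-Hochberg adjusted p under 0.05), against 2.63% of the 12500 genes tested, and 8 had an unadjusted p under 0.05, beside 18.0% of all genes. The count was also 0 in each fit that left out a library. Some of these fits could hardly give a call in the lists. Only 2, 4 and 7 of the 12500 genes passed without control replicate 2, control replicate 3 and DOX replicate 2. In TPTN against DOX, 4 of 56 passed (3.26% of all genes): Lrg1, Apod and Cebpd were lower (lower calls, 2.46% of all genes) and Cxcl12 was higher (higher calls, 0.792%), and 14 of 56 had an unadjusted p under 0.05, beside 20.6% of all genes. In TPTN against control, 3 of 56 passed (0.720% of all genes): Lrg1, Cebpb and Cebpd were lower (lower calls, 0.384% of all genes) and 0 were higher (higher calls, 0.336%), and 16 of 56 had an unadjusted p under 0.05, beside 13.1%. With no minimum level, which brings in all 29237 genes, each of these calls was lost, with Lrg1 at an adjusted p of 0.0820 against DOX in limma. Without DOX replicate 1 the TPTN against DOX calls of Lrg1, Apod and Cxcl12 held (adjusted p = 0.0167, 0.0236 and 0.0400 in limma) and that of Cebpd did not.

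Among ligands and granule proteins, 2 of 24 genes were tested and 0 passed in limma in any comparison, as none had an unadjusted p under 0.05. They were Lyz2, the lysozyme gene shared with macrophages (81.1 ± 14.6 FPKM in control hearts, 76.5 ± 7.58 in DOX, 67.6 ± 8.36 in TPTN, SD, n = 3 each), and Anxa1, the annexin gene of resolving inflammation (4.33 ± 0.343, 4.33 ± 1.06 and 4.46 ± 0.524). For neutrophil surface proteins it was 4 of 23, including the integrin subunit genes Itgb2 and Itgam, whose means were 1.54 and 0.921 FPKM in control hearts, 1.54 and 0.591 in DOX and 1.69 and 0.781 in TPTN. These 2 did not pass in any comparison.

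Lrg1, a secreted leucine-rich glycoprotein gene found in neutrophil granules and also in endothelium and liver, was the gene of that list that changed. It was at 22.2, 26.7 and 20.1 FPKM in control hearts, 22.6, 24.2 and 25.5 in DOX and 11.9, 12.1 and 13.4 in TPTN. TPTN stood apart from both other groups, which overlapped. Lrg1 fell in TPTN against DOX by 0.90 on the log2 scale (SE 0.10, limma adjusted p = 0.00759) and against control by 0.83 (SE 0.10, limma adjusted p = 0.00635). Its DOX against control difference was 0.07 (limma adjusted p = 0.757), unlike the lower DOX levels of the 3 genes, though that contrast between genes was not tested.

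Of the recruitment genes, 3 of 15 were tested. Cxcl12, a chemokine that holds neutrophils in bone marrow, was at 16.1, 16 and 16.4 FPKM in control hearts, 13.5, 14.4 and 16.3 in DOX and 19.2, 23.3 and 25.6 in TPTN. It rose in TPTN against DOX by 0.59 (SE 0.10, limma adjusted p = 0.0227). The call was lost without DOX replicate 2 (adjusted p = 0.0610 in limma), TPTN replicate 2 (0.0593) or TPTN replicate 3 (0.0644). The adhesion molecule genes Icam1 (2.71, 2.19 and 2.21 FPKM in control hearts, DOX and TPTN) and Vcam1 (1.54, 1.66 and 1.44) did not pass.

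Receptors for the 3 proteins gave no call. Of the calprotectin receptors and their signalling genes, 10 of 13 were tested and 0 passed in limma in any comparison, with 1, 1 and 2 at an unadjusted p under 0.05 for DOX against control, TPTN against DOX and TPTN against control. Their median log2 difference was 0.03, -0.06 and 0.02, beside 0.04, -0.01 and 0.04 over all genes tested. Without DOX replicate 1 the first of these was -0.02 and the second -0.06. Bsg, the abundant basigin gene, had means of 469, 526 and 497 FPKM, and Myd88, the adaptor of Tlr4, of 3.60, 3.77 and 3.65. Of the lipocalin 2 receptors, 1 of 4 was tested, Slc22a17, at 0.501, 0.616 and 0.525 FPKM, and it did not pass (limma adjusted p = 0.709, 0.764 and 0.954). Lrp2, the megalin gene, and Bdh2, of siderophore synthesis, were at or under 0.181 FPKM in all libraries.

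Relatives of the 3 genes gave 1 call in all, that of Apod. Of the other S100 genes 7 of 16 were tested, and 0 passed in limma, with 3, 2 and 0 at an unadjusted p under 0.05. Their median difference was 0.20 for DOX against control, where S100a8 and S100a9 were at -0.998 and -0.90, then -0.19 for TPTN against DOX and 0.00 for TPTN against control. Without DOX replicate 1 the first pair was 0.20 and -0.20. The TPTN against control median was -0.05 with libraries scaled by median ratios and 0.03 with mitochondrial genes left out of the scaling sum. S100a1, the S100 gene of heart muscle, had means of 406, 432 and 364 FPKM, S100a11 of 22.1, 22.3 and 24.9 and S100a16 of 16.6, 20.3 and 18.5.

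Of the other lipocalin genes, 3 of 18 were tested. Apod, the apolipoprotein D gene, was at 1.97, 2.32 and 2.02 FPKM in control hearts, 3.31, 2.88 and 2.47 in DOX and 1.32, 1.44 and 1.07 in TPTN. Its DOX libraries were the highest, unlike those of Lcn2, and its TPTN libraries the lowest. Apod fell in TPTN against DOX by 0.77 (SE 0.10, limma adjusted p = 0.00850). Ptgds, the lipocalin-type prostaglandin D synthase gene, had means of 174, 143 and 76.9 FPKM with a wide spread and did not pass (limma adjusted p = 0.234 for TPTN against DOX), nor did C8g, of complement.

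Upstream of the 3 genes, 7 of 15 cytokine and receptor genes were tested and 0 passed in limma, with 1, 0 and 1 at an unadjusted p under 0.05 in the 3 comparisons. Il6st, the shared receptor subunit of the interleukin-6 family, had means of 11.9, 12.2 and 13 FPKM, and Tnfrsf1a, a receptor for tumour necrosis factor, of 10.1, 11.8 and 10.9. Of 15 transcription factor genes 13 were tested, with medians of -0.05, 0.09 and 0.16 (-0.08 and 0.13 for the first pair of comparisons without DOX replicate 1). In limma 1, 6 and 7 of the 13 had an unadjusted p under 0.05, beside 18.0, 20.6 and 13.1% of all genes. The 2 that passed, both lower with TPTN, are C/EBP family members that act in myeloid and acute phase gene expression.

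Cebpb was at 12.2, 9.06 and 11.6 FPKM in control hearts, 9.67, 8.01 and 8.09 in DOX and 5.37, 5.49 and 6.90 in TPTN. Its group means were ordered like those of the 3 genes, and TPTN did not overlap the others. Cebpb fell in TPTN against control by 0.79 (SE 0.12, limma adjusted p = 0.0190) and was at -0.47 against DOX (limma adjusted p = 0.0654). The call was lost without control replicate 3 (adjusted p = 0.0718 in limma), TPTN replicate 1 (0.0789) or TPTN replicate 2 (0.0832).

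Cebpd was at 3.43, 2.27 and 2.36 FPKM in control hearts, 2.74, 1.91 and 2.24 in DOX and 0.830, 1.25 and 1.32 in TPTN. Here too TPTN lay below both other groups, which overlapped. Cebpd fell by 0.63 against DOX (SE 0.14, limma adjusted p = 0.0429) and by 0.78 against control (SE 0.14, limma adjusted p = 0.0351). Both calls were lost in most fits that left out a library: against DOX the adjusted p in limma was 0.0800 without DOX replicate 1 and reached 0.134 without TPTN replicate 1, and against control it reached 0.106 without TPTN replicate 2. The control and DOX means of Nfkbia, the inhibitor of NF-kappaB, were 12.2 and 11.1 FPKM and the TPTN mean was 8.35, and Stat3 was at 8.17, 7.25 and 8.26, neither past the threshold.

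Of the acute phase genes, 8 of 15 were tested, and Lrg1 was the one that passed. Their medians were 0.03, -0.27 and -0.15, the second of which was -0.17 without DOX replicate 1. C3, of complement, had means of 19.0, 21.4 and 16.2 FPKM and Steap4, a metalloreductase gene, of 11.5, 11.5 and 12.5, and neither passed.

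**Figure D3:**
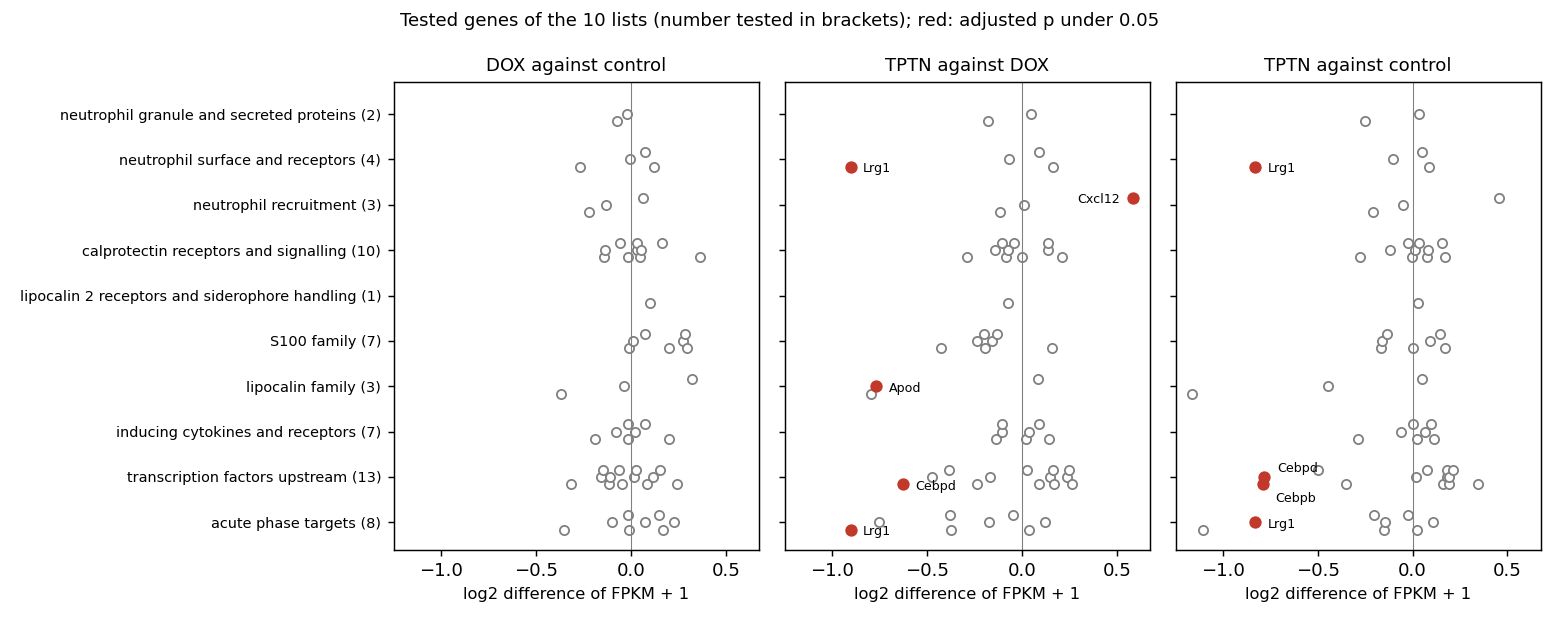
Difference of log2(FPKM + 1) (x axis) of the tested genes of the 10 lists (y axis, number tested in brackets) in the 3 comparisons; each circle is 1 gene, filled red where the limma adjusted p was under 0.05. No circle is red for DOX against control, and with TPTN the red ones are Lrg1, Apod, Cebpd and Cebpb to the left of 0 and Cxcl12 to the right.

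Likeness to the 3 genes was read as Pearson's r of log2(FPKM + 1) over the 9 libraries, among tested genes with a name. Among the 3 themselves r was 0.971 for S100a9 and Lcn2, 0.948 for S100a8 and S100a9 and 0.908 for S100a8 and Lcn2. The highest values outside them were Twnk (0.957), Pex11a (0.932), Pnpla7 (0.921), Agap2 (0.921) and Cd36 (0.914) for S100a8. For S100a9 they were Cd36 (0.967), Pex11a (0.951), Fkbp5 (0.945), Tecrl (0.942) and Gmnn (0.938). For Lcn2 they were Fkbp5 (0.963), Sgo2a (0.956), Xdh (0.951), Cd36 (0.938) and Plscr4 (0.933). The 9 libraries share their groups and their scaling, and these are the highest of many values, so they describe a shared order of libraries.

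Genes so alike differed widely in the size of their differences. Cd36, the fatty acid transporter of heart muscle and also a binding partner of calprotectin with fatty acids, was at 385, 404 and 358 FPKM in control hearts, 330, 368 and 344 in DOX and 297, 325 and 323 in TPTN. Its order of libraries was that of S100a9, while its TPTN against control difference was -0.28 (limma adjusted p = 0.113). Fkbp5, a co-chaperone gene of steroid receptors, was at 2.94, 4.44 and 3.31 FPKM in control hearts, 2.31, 2.21 and 2.23 in DOX and 1.03, 0.941 and 0.971 in TPTN. No 2 of its groups overlapped.

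Fkbp5 fell in TPTN against control by 1.19 (SE 0.11, limma adjusted p = 0.00192) and against DOX by 0.71 (SE 0.11, limma adjusted p = 0.0140). Xdh, the xanthine dehydrogenase gene, had means of 13.3 ± 1.61, 10.9 ± 0.580 and 7.29 ± 0.276 FPKM (SD, n = 3 each) and likewise fell in TPTN against DOX by 0.52 (SE 0.09, limma adjusted p = 0.0207) and against control by 0.78 (SE 0.09, limma adjusted p = 0.00408). The first of these Xdh calls was lost without DOX replicate 2 (adjusted p = 0.0606 in limma), DOX replicate 3 (0.0509), TPTN replicate 1 (0.0660), TPTN replicate 2 (0.0577) or TPTN replicate 3 (0.0592), and that of Fkbp5 without TPTN replicate 3 (0.0542). Both held without DOX replicate 1 (adjusted p = 0.0332 and 0.0304 in limma). In DOX against control Fkbp5 fell by 0.47 (SE 0.11, limma adjusted p = 0.0443), a call lost in 8 of the 9 fits that left out a library, with adjusted p = 0.118 in limma without DOX replicate 2 and 0.0711 without DOX replicate 1. Twnk, the mitochondrial helicase gene, and Pex11a, of peroxisome division, had TPTN means of 5.71 and 3.97 FPKM against 6.95 and 5.28 in control, differences of -0.24 and -0.33.

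**Figure D4:**
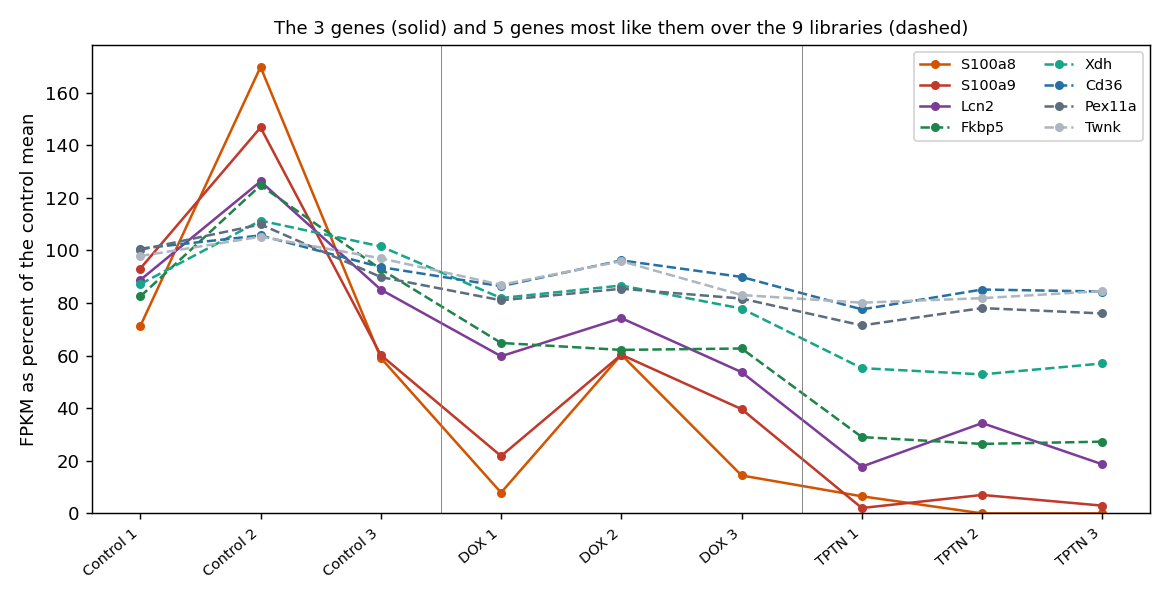
FPKM as percent of each gene's control mean (y axis) in the 9 libraries (x axis) for S100a8, S100a9 and Lcn2 (solid) and 5 of the genes named above as most like them (dashed); lines join the values of 1 gene and stand for no order of replicates. The TPTN means are 4.0% of control for S100a9 and 23.6% for Lcn2. In TPTN the dashed lines run from Fkbp5, the lowest, to Cd36, Pex11a and Twnk, the highest.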

How the data were processed

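Messenger RNA of 9 heart libraries was sequenced as strand-marked read pairs of 150 bases, per the labels' protocols. The deposited table holds FPKM per gene. Per the submitters' processing notes, cutadapt 1.9, HISAT2 2.0.4, StringTie 1.3.4d, DESeq2, edgeR and GRCm38 were used, with no role given. The authors' deposited table also holds a p-value and a q-value per gene. For each of the 3 genes, all 9 values times the gene's joined exon length were whole at 6 decimals. Transcript FPKM summed by length and divided by that joined length would give this, but transcript values were not read. Exon lengths are from GENCODE M21, in which 29154 of 29237 genes were found.

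Here log2(FPKM + 1) of the 12500 genes with a mean of at least 0.5 FPKM was fitted with limma 3.58.1 (trend and robust empirical Bayes, a mean per group, all 9 libraries; R 4.3.3, data.table version 1.17.8), with Benjamini-Hochberg adjustment at 0.05. The deposited FPKM are not counts, so no count test was made. At low levels, 10.9 to 14.7% lay on whole multiples of what 1 read pair is estimated to be worth (tolerance 0.05). Values spread evenly would give a share not far below this, so the worth of 1 read pair is poorly fixed. Depths, from 15203 genes with 1 transcript, and the read pair numbers built on them are therefore rough and weakly supported. The 3 genes and the gene lists were chosen with earlier results of these data known. Named genes are, per role list, up to 6 past the threshold and the 3 of highest mean, the markers Ly6g, Cxcr2, Csf3r and Retnlg, and the 5 genes most like each of the 3. Mpo was also to be named, but the deposited table has no row under that symbol. Other genes are said to be chosen after their values were seen. The labels state no pairing of libraries by replicate number, so no block was used in the main fit. No 2 libraries shared more than 0.0256% identical values. The procedure was checked on simulated data. Other settings were a fit of the groups compared, a replicate block, a pseudocount of 0.1, no minimum or a minimum of 1 FPKM, median-ratio scaling, scaling without mitochondrial genes, and leaving out each library. Marker counts and list medians without DOX replicate 1 were added after seeing the data. Python 3.11.15, pandas 2.3.3, numpy 2.4.6 and matplotlib 3.10.9 were used.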

Additional observations from a re-analysis of the deposited data

How the results depend on the processing

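None of the 9 differences of the 3 genes changed sign with the other pseudocount, with either other scaling or with any 1 library left out. For Lcn2, and for TPTN against either group in all 3 genes, the groups did not overlap. Leaving out a library could not change the sign there, so nothing is read from it. Leaving out 1 library at a time gave -1.30 to -0.67 (S100a8), -1.14 to -0.64 (S100a9) and -0.45 to -0.27 (Lcn2) for DOX against control, -0.76 to -0.26, -1.32 to -0.90 and -0.65 to -0.49 for TPTN against DOX, and -1.76 to -1.24, -2.25 to -1.75 and -1.03 to -0.83 for TPTN against control. With a pseudocount of 0.1, which compresses low values less, the differences were -1.93 (S100a8) and -0.62 (Lcn2) for DOX against control, -2.04, -2.67 and -1.25 for TPTN against DOX and -3.98, -3.94 and -1.87 for TPTN against control.

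The counts of genes past the threshold, 329 for DOX against control, 407 for TPTN against DOX and 90 for TPTN against control, were less stable. With no minimum level they were 2, 2 and 6, and the role lists then had 0 calls in place of 4 and 3. Of the calls followed over the settings, which leave out those of Kdr, only that of Fkbp5 in TPTN against control then held (adjusted p = 0.0491 in limma). For DOX against control the count was 176 with only those groups fitted, 170 with a replicate block and 173 under median ratios (110 higher and 63 lower, 63.6% higher in place of 84.8%). TPTN against DOX gave 159 with the replicate block, 149 higher and 280 lower under median ratios and 187 higher and 170 lower (52.4% in place of 24.3%) when scaled without mitochondrial genes. That scaling gave 145 for TPTN against control (62.1% higher in place of 46.7%). Leaving out 1 library gave 2 to 314 for DOX against control, 45 to 468 for TPTN against DOX and 21 to 148 for TPTN against control, with the lowest counts of the first, 2, 4 and 7, without control replicate 2, control replicate 3 and DOX replicate 2. Fits with a library left out also hold fewer samples. Role list calls then ranged from 2 to 5 for TPTN against DOX and from 1 to 4 for TPTN against control. Libraries with the same replicate number did not deviate together (correlations of -0.26 to 0.02 in 9 pairs, beside -0.251 to 0.398 in 18 pairs with different numbers). With 3 libraries a group this cannot exclude a shared batch, and the labels state no pairing. With the block, the Cebpd calls (adjusted p = 0.0762 and 0.0715 in limma) and the Fkbp5 call in DOX against control (0.0742) were lost. That Fkbp5 call was also lost with only those groups fitted (adjusted p = 0.0946 in limma) and under median ratios (0.0579), and the Cebpd call against control with only those groups fitted (0.0655) and against DOX when scaled without mitochondrial genes (0.0521). At 2.09 estimated read pairs in TPTN, the depth does not allow a firm fold for S100a8.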

Other observations

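Transcripts of Ngp, Camp and Ltf did not follow the order of S100a8, S100a9 and Lcn2. Ngp, Camp and Ltf summed to 1.27 FPKM in DOX replicate 2 (0.733, 0.346 and 0.188), the library with the highest S100a8, S100a9 and Lcn2 of its group. Their sum was between 0 and 0.152 in the other 8 libraries. The control libraries, in which the 3 genes were highest, had Camp and Ltf listed at 0. These values are low and come from a single library. The cause was not tested.

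The acute phase genes Serpina3n and Hp and the cytokine gene Il1b were looked at after their values were seen. Serpina3n, a secreted serine protease inhibitor gene, was at 5.34, 12.8 and 3.79 FPKM in control hearts, 4.19, 7.10 and 3.83 in DOX and 3.00, 2.46 and 2.06 in TPTN, so that control replicate 2 and DOX replicate 2 were again highest of their groups. Hp, the haptoglobin gene, was at 0.754, 0.470 and 0.20 FPKM in control hearts, 0.483, 0.251 and 0.152 in DOX and 0, 0.0920 and 0.166 in TPTN, with control replicate 1 highest. Il1b, the interleukin-1 beta gene, was at 0.972, 0.289 and 0.447 in control hearts, 0.127, 0.216 and 0.401 in DOX and 0, 0.266 and 0.0465 in TPTN, likewise highest in control replicate 1. The genes thus did not all share the library in which they were highest.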
